A study of Mus musculus with 4 samples.

Results

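Kinesins and centromere proteins were examined in bone marrow of the 5TMM mouse model of multiple myeloma after treatment with Purinostat Mesylate (PM), an inhibitor of class I and IIb histone deacetylases. The members were all genes of the feature table whose symbol is Kif with a number and at most 1 letter, or Cenp with 1 letter, which gave 58 of 32285 genes. They comprised 11 mitotic kinesins, 3 centromere proteins whose level follows the cell cycle (Cenpa, Cenpe and Cenpf, called periodic here), 14 proteins of the constitutive centromere network, 24 non-mitotic kinesins, 3 kinesins used in and out of mitosis (Kif2a, Kif2b and Kif24) and 3 other Cenp genes (Cenpb, Cenpj and Cenpv). The first 3 classes are referred to as the 28 mitotic members. C57BL/KawRij mice aged 6 weeks received 5TGM1-luc myeloma cells intravenously, and after 3 weeks 2 mice were given vehicle and 2 mice were given 10 mg/kg PM. Marrow was collected at 24 h, erythrocytes were lysed, and each mouse gave 1 droplet-based library of 3′ ends. All 4 mice carried the tumor, no tumor-free mouse was analysed here, and the transplanted cells came from 1 cell line.

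Kinesins are motor proteins that move along microtubules using ATP. Mitotic kinesins push spindle poles apart, move and align chromosomes and organize the midzone and the final cut between daughter cells, whereas transport kinesins carry organelles, vesicles and intraflagellar cargo in cells that need not divide. Centromere proteins build the platform on which the kinetochore forms, from the histone variant CENP-A and its bound network up to the outer proteins CENP-E and CENP-F. Most of the mitotic kinesins and periodic centromere proteins are transcribed mainly in late S, G2 and M phase. That timing is known to depend on the cell cycle genes homology region (TTTGAA), bound by the MuvB complexes, and on CCAAT boxes, bound by NF-Y.

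The promoters were therefore searched for TTTGAA and CCAAT on both strands, from 250 bases before to 50 bases after the start of transcription, using RefSeq sequence of GRCm38.p6. A promoter was held for 51 of the 58 members. TTTGAA was present for 9 of 10 mitotic kinesins, 2 of 3 periodic centromere proteins (66.7%), 3 of 14 network proteins (21.4%) and 3 of 18 non-mitotic kinesins (16.7%), against 18.6% of the 20267 genes with a promoter. CCAAT was present for 19 of 27 mitotic members (70.4%) and for 6 of 18 non-mitotic kinesins (33.3%), against 41.7% of those genes. These counts describe letters in a window and were given no test.

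The promoters of 7 of the members that were called different between PM and vehicle in some population are shown. Kif23 and Kif18b, which were not called, are added because they hold both motifs next to the start. The called members Kif2c, Kif20a and Kif20b are not shown. No promoter was held for Kif20a. Kif2c held TTTGAA only on the other strand from base -103, Kif20b held it from bases 8 and 14, and neither held CCAAT. Each stretch runs from base -80 to base 40 around the start, 5′ to 3′ on the gene's strand, and capitals mark TTTGAA or CCAAT on either strand. The first lies at chr1:189688047-189688166 (minus strand), the second at chr9:61946760-61946879 (minus), the third at chr11:102925085-102925204 (minus), the fourth at chr19:37376302-37376421 (plus) and the fifth at chr9:122951001-122951120 (plus). Those of Cenpw, Cenpe, Kif1b and Kif3c lie at chr10:30200501-30200620 (minus), chr3:135212483-135212602 (plus), chr4:149307694-149307813 (minus) and chr12:3365052-3365171 (plus).
Cenpf: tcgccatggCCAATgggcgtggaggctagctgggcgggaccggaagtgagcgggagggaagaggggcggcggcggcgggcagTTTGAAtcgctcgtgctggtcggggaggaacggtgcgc
Kif23: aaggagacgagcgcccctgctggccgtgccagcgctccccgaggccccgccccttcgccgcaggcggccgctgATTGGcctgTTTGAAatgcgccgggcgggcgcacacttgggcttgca
Kif18b: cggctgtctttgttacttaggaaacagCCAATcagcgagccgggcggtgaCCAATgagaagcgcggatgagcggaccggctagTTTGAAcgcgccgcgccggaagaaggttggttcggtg
Kif11: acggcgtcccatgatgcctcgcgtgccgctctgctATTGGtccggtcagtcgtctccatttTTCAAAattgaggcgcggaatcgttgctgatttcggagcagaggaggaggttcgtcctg
Kif15: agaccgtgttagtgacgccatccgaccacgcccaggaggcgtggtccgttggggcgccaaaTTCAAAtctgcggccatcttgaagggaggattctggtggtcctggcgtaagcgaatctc
Cenpw: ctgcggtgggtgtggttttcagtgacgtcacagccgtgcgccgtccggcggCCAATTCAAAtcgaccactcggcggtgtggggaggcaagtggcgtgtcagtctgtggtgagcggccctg
Cenpe: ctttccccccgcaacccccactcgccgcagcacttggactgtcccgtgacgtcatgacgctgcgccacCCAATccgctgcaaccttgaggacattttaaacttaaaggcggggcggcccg
Kif1b: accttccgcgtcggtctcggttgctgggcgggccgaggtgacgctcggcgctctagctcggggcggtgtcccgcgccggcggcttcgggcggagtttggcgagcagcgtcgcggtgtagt
Kif3c: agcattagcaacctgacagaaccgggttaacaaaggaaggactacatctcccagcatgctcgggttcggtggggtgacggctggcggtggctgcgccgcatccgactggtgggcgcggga
In Cenpf, Kif23 and Kif18b the TTTGAA began at base 3, 3 and 4 after the start. In Kif11 and Kif15 it lay on the other strand from base -19, and in Cenpw it shared 1 base with a CCAAT box. Cenpe held a CCAAT box at base -12 and no TTTGAA, and neither motif lay in the stretch printed for Kif1b or Kif3c.

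The libraries held 8242 to 13848 cell barcodes, of which 7826 to 13387 were kept, with a median of 4717 to 6067 UMIs (counted molecules) per kept cell. Pairs of libraries shared 18 to 41 barcode sequences, at most 0.431% of the smaller library. Cells were clustered and named from marker genes, and 17 populations with at least 10 cells in every mouse were tested. The myeloma population is called clonal plasma-like: in 98.1% of its cells with a light-chain V gene the leading one was Igkv10-96, but only 3 of 8 plasma markers were raised in it, and its leading genes were Rhox5, Mt2 and Mt1. It held 21 and 27 cells under vehicle and 92 and 31 cells under PM. The 2 libraries of a group came from separate mice.

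The mitotic members gave 433204 UMIs and the non-mitotic kinesins 167015 UMIs over the 4 libraries. Of the mitotic UMIs, 29.6% lay in immature neutrophils, 21.6% in early neutrophils, 21.3% in monocytes and their progenitors (mono&prog) and 10.7% in erythroid&prog cells. These shares are to be read against the share of all UMIs, which was 31.2% for immature neutrophils, 16.8% for early neutrophils, 15.4% for mono&prog cells and 5.32% for erythroid&prog cells. Mature neutrophils held 13% of all UMIs and 1.26% of the mitotic UMIs. The non-mitotic kinesins lay close to the share of all UMIs in these neutrophils, with 12.4% of their UMIs in mature and 15.1% in early neutrophils. Erythroid&prog cells held 3.31% of their UMIs, below the 5.32% share of all UMIs. Kif2b and Kif12 had no UMI in any library, Kif6 had 2 UMIs, Kif28 had 5, Kif26a had 9 and Kif27 had 15. These 6 genes and Kif1a, Kif21a and Kif19a were too low to be tested in any population, which left 49 members with at least 1 test and 561 tests in all.

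The summed level of the mitotic members was lower under PM in most populations, whereas that of the non-mitotic kinesins lay near its vehicle level. Levels are given for each mouse as CPM, the UMIs of a gene per 1000000 UMIs of the population, scaled by TMM factors; plain CPM are without those factors. The sum of mitotic members had a lower mean under PM in 15 of the 17 populations, with a median log2 ratio of -0.17. Both PM mice were below both vehicle mice in 10 populations, in some of them by a narrow margin. All populations came from the same mice, so these counts are not independent. When cells were clustered without the members and other cell cycle genes, 11 of 16 populations had a lower mean, with a median log2 ratio of -0.14. For the non-mitotic kinesins the log2 ratios ran from -0.10 to 0.33 with a median of 0.00, and both PM mice were below both vehicle mice in 1 population. With 2 mice against 2 an exact permutation test cannot give a two-sided p below 0.333, so these sums carry no test. In summed populations, fewer dividing cells and less RNA per dividing cell cannot be told apart.

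**Figure D1:**
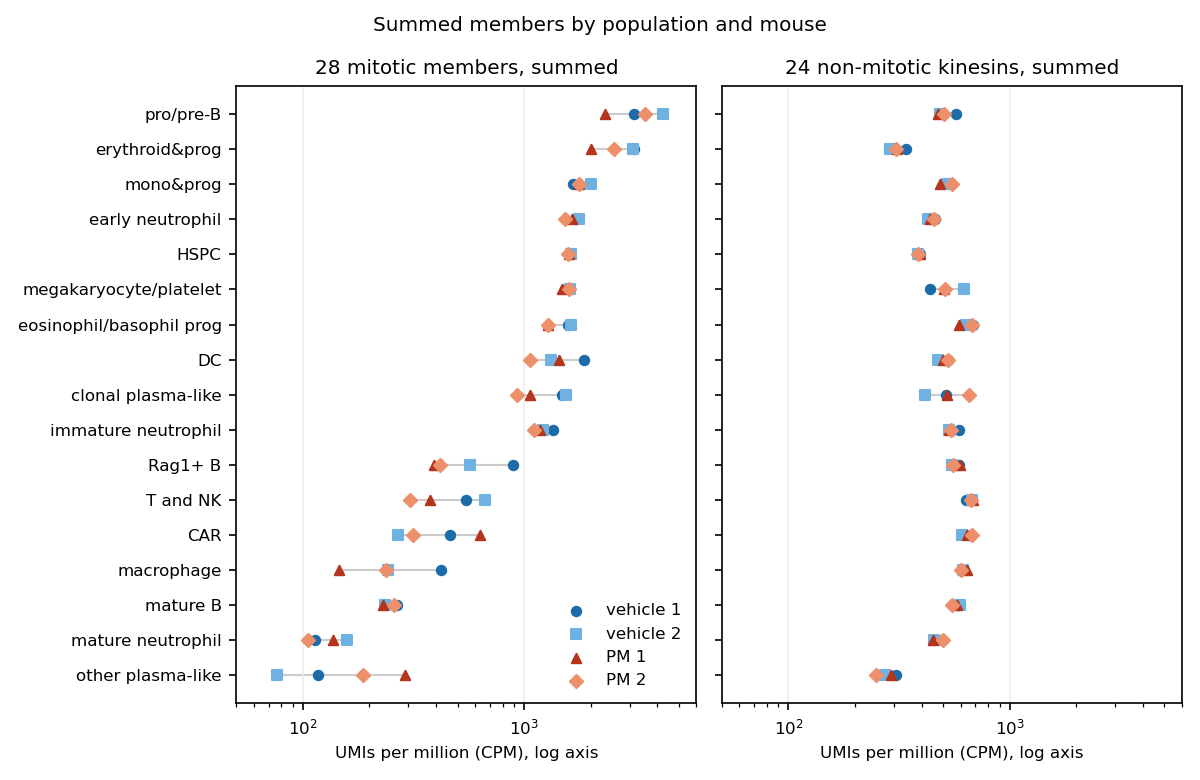
Summed CPM of the 28 mitotic members (left) and the 24 non-mitotic kinesins (right) in each of the 17 populations, on a log axis, with 1 point for each mouse and a grey line over their range. On the left the populations spread from 76.4 to 4226 CPM and the PM points lie to the left of the vehicle points in 10 populations, clonal plasma-like cells among them; on the right the points of most populations overlap.

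Of the 561 tests, 12 called a member lower and 2 called a member higher under PM, in 5 populations. That was 2.50% of the member tests, near the 1.89% of all gene tests called in the same 17 populations. A call required an adjusted p under 0.05 over all genes of the fit (edgeR's quasi-likelihood test) and a log2 fold change beyond 0.5 in either direction. By DESeq2, with the same thresholds, 2 were called lower and 1 higher. The calls lay in T and NK cells, Rag1+ B cells, clonal plasma-like cells, pro/pre-B cells and immature neutrophils, and they are described in turn.

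**Figure D2:**
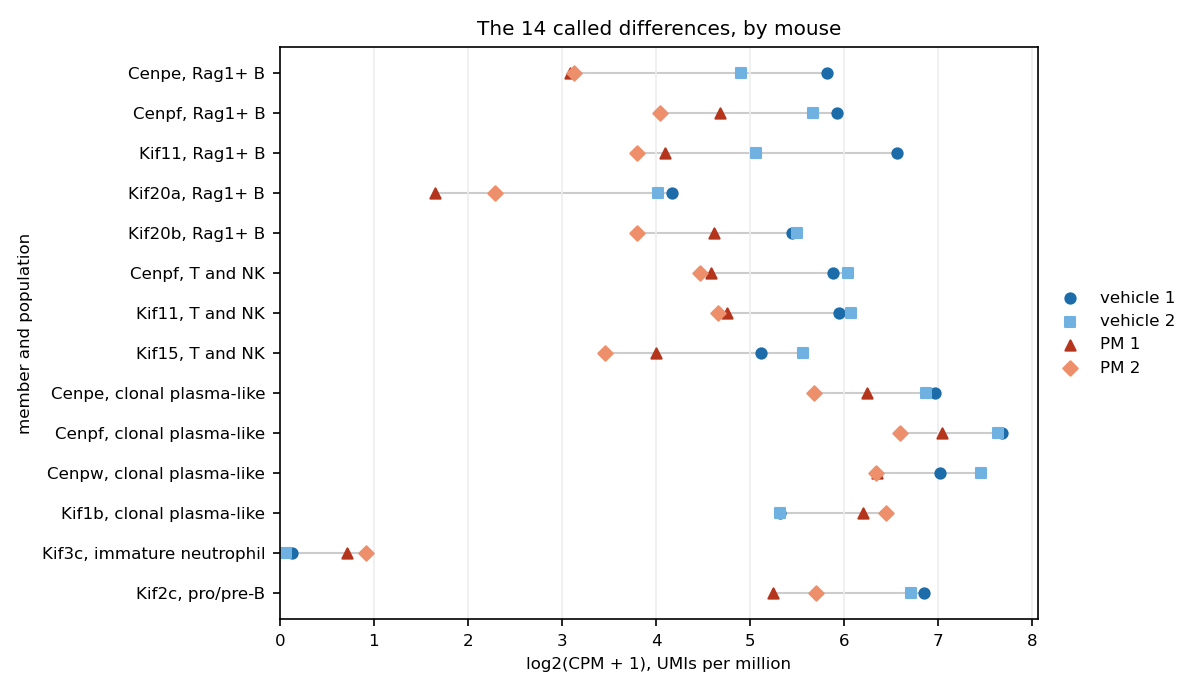
Level of each called member in each mouse, as log2(CPM + 1), for the 14 called differences. The PM points lie on one side of the vehicle points in each line, to the left for 12 of them and to the right for Kif1b in clonal plasma-like cells and Kif3c in immature neutrophils.

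In clonal plasma-like cells the mitotic members summed to 1481 and 1548 CPM in the vehicle mice and to 1060 and 930 CPM in the PM mice, a log2 ratio of -0.61. Both PM mice lay below both vehicle mice. Of 27 mitotic members tested, 23 had a lower estimate under PM, at a median log2 fold change of -0.66, beside a median of 0.00 over all genes tested. Among the 37 members tested in these cells 4 were called (10.8%), against a background of 0.643% of all genes called in either direction. DESeq2 called none of the 4, and so did edgeR when called doublets were left out, which brought the log2 ratio of the sum to -0.35. Doublets were called for 28.6% and 22.2% of the vehicle cells and for 18.5% and 0% of the PM cells. These cells held a median of 29625 to 40933 UMIs in the 4 mice.

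Cenpf, a large kinetochore protein that accumulates towards mitosis, stood at 204 and 198 CPM in the vehicle mice and at 131 and 95.7 CPM in the PM mice. The PM values were lower without overlap, with a log2 fold change of -0.80 ± 0.20 (SE, adjusted p = 0.0496). Cenpe, the kinesin of the outer kinetochore that carries chromosomes to the spindle equator, stood at 124 and 116 CPM against 74.9 and 50.2 CPM and fell by 0.90 on the log2 scale (SE 0.22, adjusted p = 0.0434). Cenpw, a histone-fold protein of the centromere network, stood at 129 and 174 CPM against 80.7 and 79.7 CPM. It fell by 0.93 on the log2 scale (SE 0.21, adjusted p = 0.0247), and its PM values were nearly equal.

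No mitotic kinesin was called in these cells, and 9 of 11 had both PM values below both vehicle values, the exceptions being Kif20a and Kif18a. The share of all genes tested in these cells that separated in this way was not determined, so the count has no background to be read against. Kif11, the motor that separates spindle poles, stood at 171 and 151 CPM against 104 and 92.5 CPM (log2 fold change -0.70, adjusted p = 0.126), and both PM mice were below both vehicle mice. Kif22, which pushes chromosome arms outward, stood at 77.7 and 60.9 CPM against 42.9 and 31.9 CPM (adjusted p = 0.161). Kif23, part of the midzone complex centralspindlin, stood at 62.2 and 98.9 CPM against 61.3 and 40.7 CPM (adjusted p = 0.368). Kif2c, Kif4, Kif15 and Kif20b also had both PM values below both vehicle values, without a call. The microtubule depolymerase Kif2c had 31.1 and 35.5 CPM against 22.3 and 19.9 CPM, and the chromokinesin Kif4 had 26.4 and 25.4 CPM against 18.4 and 13.6 CPM. Kif15, a second spindle motor beside Kif11, had 74.6 and 63.4 CPM against 51.3 and 50.2 CPM. Kif20b, which acts in cytokinesis, had 87.0 and 87.1 CPM against 57.1 and 75.8 CPM. Kif20a, which brings regulators to the midzone, had 21.8 and 24.5 CPM under vehicle and 23.6 and 23.1 CPM under PM, with both PM values inside the vehicle range. Cenpa, the centromeric histone itself, had 74.6 and 63.4 CPM against 59.7 and 39.1 CPM (log2 fold change -0.42, adjusted p = 0.689). The 4 mitotic members with higher estimates were Cenpt at 0.60, Kif18a at 0.57, Cenpk at 0.47 and Cenps at 0.07 on the log2 scale, none of them called.

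The non-mitotic kinesins of clonal plasma-like cells were mixed, with lower estimates for 3 of 7 tested. Their sum was 516 and 415 CPM under vehicle and 519 and 654 CPM under PM, a log2 ratio of 0.33. Kif1b, a motor of mitochondria and synaptic vesicle precursors, stood at 38.8 and 38.9 CPM against 72.3 and 86.1 CPM. It rose by a log2 fold change of 1.01 ± 0.25 (SE, adjusted p = 0.0420), and its vehicle values were nearly equal. Kif5b, the widely expressed conventional kinesin heavy chain, had 362 and 273 CPM against 329 and 462 CPM (adjusted p = 0.767), with overlapping groups, and it made up most of the sum. Kif3b, a subunit of the kinesin that Kif3a belongs to, had 15.5 and 17.8 CPM against 13.9 and 7.97 CPM, and Kif1c had 40.4 and 30.4 CPM against 23.2 and 28.7 CPM, both lower in both PM mice and not called. Kif2a, used in and out of mitosis, had 40.4 and 64.3 CPM against 61.0 and 65.4 CPM, and the intraflagellar motor Kif3a had 15.5 and 15.2 CPM against 16.5 and 16.7 CPM. Kif13b had 9.32 and 12.7 CPM against 13.2 and 7.18 CPM. Kif21b, which slows microtubule growth, was too low to be tested, with 2 and 3 UMIs under vehicle and 22 and 10 UMIs under PM (3.11, 2.54, 7.10 and 7.97 CPM). Kif7, a ciliary kinesin of Hedgehog signaling, was also below the filter, with 0 and 5 UMIs against 32 and 8 UMIs.

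Summed markers of immature neutrophils stood at 386 and 666 plain CPM in the vehicle mice and at 3393 and 303 in the PM mice in clonal plasma-like cells, so the PM 1 library carried more neutrophil RNA there. The PM 2 library did not. It had the lowest mitotic sum of the 4, and 0% of its clonal plasma-like cells were called doublets. The part of neutrophil RNA or of doublets in the mitotic sum was not tested. Without the PM 1 library Cenpe, Cenpf and Kif1b were called, with log2 fold changes of -1.25, -1.07 and 1.14, and the log2 ratio of the mitotic sum was -0.71. Without the PM 2 library Cenpw was called and the ratio was -0.52. Without either vehicle library none of the 4 was called (adjusted p of Cenpw 0.160 and 0.464 by edgeR).

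**Figure D3:**
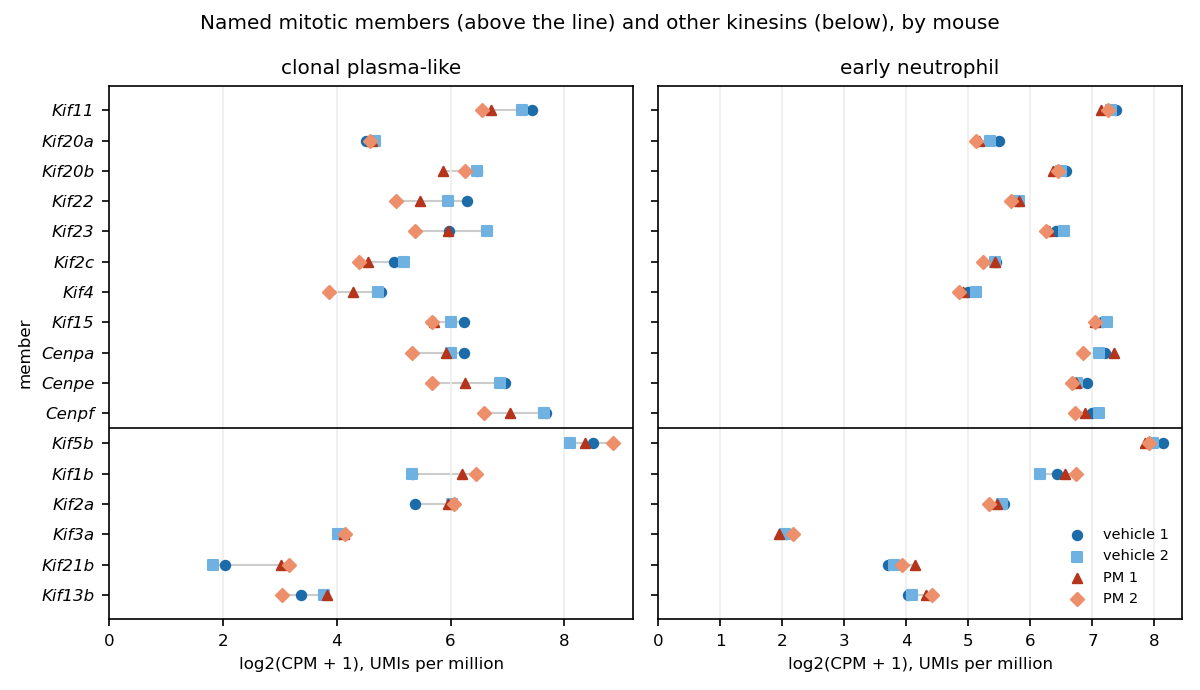
Levels of 11 named mitotic members (above the line) and 6 other kinesins (below) as log2(CPM + 1) in clonal plasma-like cells (left) and early neutrophils (right), with 1 point for each mouse. In clonal plasma-like cells the PM points of Cenpf and Cenpe lie left of the vehicle points and those of Kif1b lie right of them; in early neutrophils the 4 points of most members lie close together.

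Early neutrophils, which carry primary granules and divide actively, showed a small difference. Their mitotic members summed to 1715 and 1769 CPM in the vehicle mice and to 1649 and 1521 CPM in the PM mice, a log2 ratio of -0.14 that was -0.08 without the PM 2 library, and 24 of 28 had a lower estimate. No member was called among 46 tested, where 0.439% of all genes were called in either direction, and DESeq2 called none. All 11 mitotic kinesins had lower estimates, between -0.34 and -0.05 on the log2 scale, with a median of -0.18. The spindle motors Kif11 and Kif15 show the size of the gap. Kif11 had 165 and 157 CPM against 140 and 151 CPM, and Kif15 had 141 and 150 CPM against 131 and 131 CPM. Kif20a had 44.0 and 39.9 CPM against 34.9 and 33.8 CPM (log2 fold change -0.29, adjusted p = 0.303).

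The other named mitotic members of early neutrophils either separated the groups narrowly or overlapped. Kif20b had 94.5 and 88.9 CPM against 81.5 and 86.3 CPM, Kif23 had 83.9 and 92.6 CPM against 78.2 and 75.6 CPM, and Kif4 had 30.9 and 33.7 CPM against 29.1 and 27.7 CPM. Cenpe had 120 and 107 CPM against 105 and 101 CPM, and Cenpf had 126 and 136 CPM against 117 and 104 CPM (log2 fold change -0.24, adjusted p = 0.387). In these 5 genes both PM values lay below both vehicle values. Kif22 had 54.5 and 55.1 CPM against 55.4 and 50.5 CPM, Kif2c had 42.5 and 42.1 CPM against 41.9 and 36.7 CPM, and Cenpa had 146 and 137 CPM against 161 and 114 CPM, so Kif22 and Cenpa overlapped. Kif1b again had its PM values on the higher side, at 85.0 and 70.6 CPM against 93.7 and 105 CPM (log2 fold change 0.35, adjusted p = 0.251). Kif13b had 15.3 and 16.0 CPM against 18.9 and 20.3 CPM, Kif21b had 12 and 13 CPM against 16.7 and 14.3 CPM, and Kif3a had 3.18 and 3.14 CPM against 2.86 and 3.51 CPM. Kif5b had 280 and 250 CPM against 229 and 239 CPM and Kif2a had 46.5 and 45.7 CPM against 42.9 and 39.1 CPM, lower in both PM mice and not called.

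In T and NK cells the mitotic members were at a low level and lower again under PM. Their sum was 547 and 668 CPM under vehicle and 377 and 306 CPM under PM, a log2 ratio of -0.83, whereas the non-mitotic kinesins summed to 636 and 675 CPM against 685 and 665 CPM. Of 23 mitotic members tested 22 had a lower estimate, and 3 of 37 members were called (8.11%), against a background of 0.517% of all genes. Cenpf stood at 58.0 and 64.7 CPM against 23.0 and 21.2 CPM and fell by 1.47 on the log2 scale (SE 0.21, adjusted p = 0.00785 by edgeR and 0.0180 by DESeq2). Kif11 stood at 60.8 and 66.3 CPM against 26.0 and 24.2 CPM and fell by 1.33 (SE 0.20, adjusted p = 0.00844 by edgeR and 0.0410 by DESeq2). In both genes the values within a group differed by less than the gap between the groups. Kif15 stood at 33.6 and 46.2 CPM against 15 and 9.95 CPM and fell by 1.65 (SE 0.29, adjusted p = 0.0209 by edgeR and 0.0721 by DESeq2). The population held 259 and 260 cells under vehicle and 828 and 540 under PM. Of these, 45 and 54 under vehicle and 103 and 69 under PM lay in a cluster led by Gzma and Klra4. The part of this makeup in the member levels was not tested.

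The calls in T and NK cells were lost when called doublets were left out, and the part of doublets in them was not tested. Called doublets were 12.7% and 11.9% of these cells under vehicle and 14.1% and 8.33% under PM, and of the cells with a mitotic profile (defined below) they were 5 of 15, 10 of 14, 14 of 36 and 3 of 15. With called doublets left out, the mitotic members summed to 395 and 322 plain CPM against 286 and 219, and no member was called. Cenpf then had a log2 fold change of -1.01 (adjusted p = 0.636), Kif15 of -1.08 (adjusted p = 0.273) and Kif11 of -1.18 (adjusted p = 0.0969), by edgeR. Summed markers of immature neutrophils stood at 15254, 9676, 13306 and 5557 plain CPM in the 4 mice with doublets and at 3522, 864, 1647 and 2321 without them. Without the vehicle 2 library Kif15 alone was lost (adjusted p = 0.101).

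Rag1+ B cells are a cluster that scored highest for mature B markers, while its 10 leading genes held Rag1 and Vpreb3, markers of pro/pre-B cells, beside the mature B marker Ms4a1. Their mitotic members summed to 894 and 570 CPM in the vehicle mice and to 391 and 417 CPM in the PM mice, and the non-mitotic kinesins to 591 and 550 CPM against 593 and 554 CPM. Of 28 members tested 5 were called lower (17.9%), against a background of 8.62% of all genes in either direction, and DESeq2 called none of them. Kif11 stood at 93.6 and 32.5 CPM against 16.1 and 12.9 CPM and fell by 1.66 on the log2 scale (SE 0.38, adjusted p = 4.96e-04). The vehicle mice differed widely in it. Cenpe stood at 55.3 and 29.0 CPM against 7.5 and 7.75 CPM and fell by 2.18 (SE 0.48, adjusted p = 2.11e-04), and Cenpf stood at 59.6 and 49.7 CPM against 24.6 and 15.5 CPM and fell by 1.34 (SE 0.34, adjusted p = 0.00201). Kif20a rested on 4, 22, 2 and 3 UMIs (17.0, 15.2, 2.14 and 3.88 CPM) and fell by 2.35 (SE 0.75, adjusted p = 0.0243 by edgeR). Kif20b stood at 42.6 and 44.2 CPM against 23.6 and 12.9 CPM and fell by 1.23 (SE 0.36, adjusted p = 0.0113 by edgeR). Cenpe and Kif20a passed the filter on low counts only through the vehicle mice, so their being tested depended on the group in which they were high.

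The makeup of the Rag1+ B cluster differed between the groups as well. Its summed mature B markers stood at 7695 and 7156 plain CPM in the vehicle mice and at 13370 and 11819 in the PM mice, and its pro/pre-B markers at 8026 and 9363 against 6657 and 6278. The vehicle 1 library held 91 of these cells, fewer than the 562, 378 and 250 of the other mice. The part of this shift in the member calls was not tested, and no such cluster formed when the cells were clustered without the members and other cell cycle genes. Without the PM 2 library Cenpe and Kif11 of the 5 were called, as they were without the vehicle 2 library, which gave no value for Kif20a, and without the vehicle 1 library Cenpe, Cenpf and Kif20b were called. Over the 4 cases in which 1 library was left out, the log2 fold change of Cenpe ran from -2.82 to -1.93. Its being tested depended on the vehicle mice, in which it was high, so this range is no added support.

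In pro/pre-B cells the sum of the mitotic members was 3117 and 4226 CPM under vehicle and 2322 and 3530 CPM under PM, and the groups overlapped. Kif2c, which removes faulty attachments of chromosomes to the spindle, was called: it stood at 114 and 104 CPM against 37.0 and 51.2 CPM and fell by 1.29 on the log2 scale (SE 0.28, adjusted p = 0.00934 by edgeR). That was 1 of 40 members tested (2.50%), near the background of 2.16% of all genes. Of the 28 mitotic members 21 had a lower estimate, and 10 of the 11 mitotic kinesins did. Kif14 had 52.0 and 70.3 CPM against 25.0 and 40.7 CPM (adjusted p = 0.103), Kif22 had 198 and 215 CPM against 103 and 163 CPM (adjusted p = 0.136), and Kif11 had 427 and 570 CPM against 284 and 479 CPM (adjusted p = 0.436). DESeq2 gave no adjusted p for Kif2c, and without called doublets its adjusted p by edgeR was 0.0764. It was also lost without the PM 1 library (adjusted p = 0.202) and without the vehicle 2 library (adjusted p = 0.0815), while 5 members were called lower without the PM 2 library.

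Erythroid&prog cells held 27 of 28 mitotic members with a lower estimate and no call among 42 members tested, where 0.200% of all genes were called. Their sum was 3130 and 3087 CPM under vehicle and 1996 and 2533 CPM under PM, a log2 ratio of -0.46 with both PM mice lower. Kif4 had the lowest estimate of the mitotic members, at 78.0 and 84.4 CPM against 41.5 and 53.8 CPM (log2 fold change -0.78, adjusted p = 0.162), and Kif11 had 318 and 289 CPM against 173 and 252 CPM (adjusted p = 0.295). Kif1b had 4.87 and 5.45 CPM against 13.3 and 13.9 CPM (log2 fold change 1.37, adjusted p = 0.159), which was its highest estimate over the 17 populations. The median UMI count of these cells was 17687 in PM 1 and 6442 to 6724 in the other mice, so the PM 1 library held a deeper set of erythroid cells. The log2 ratio of the sum was -0.28 without that library and -0.64 without the PM 2 library.

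**Figure D4:**
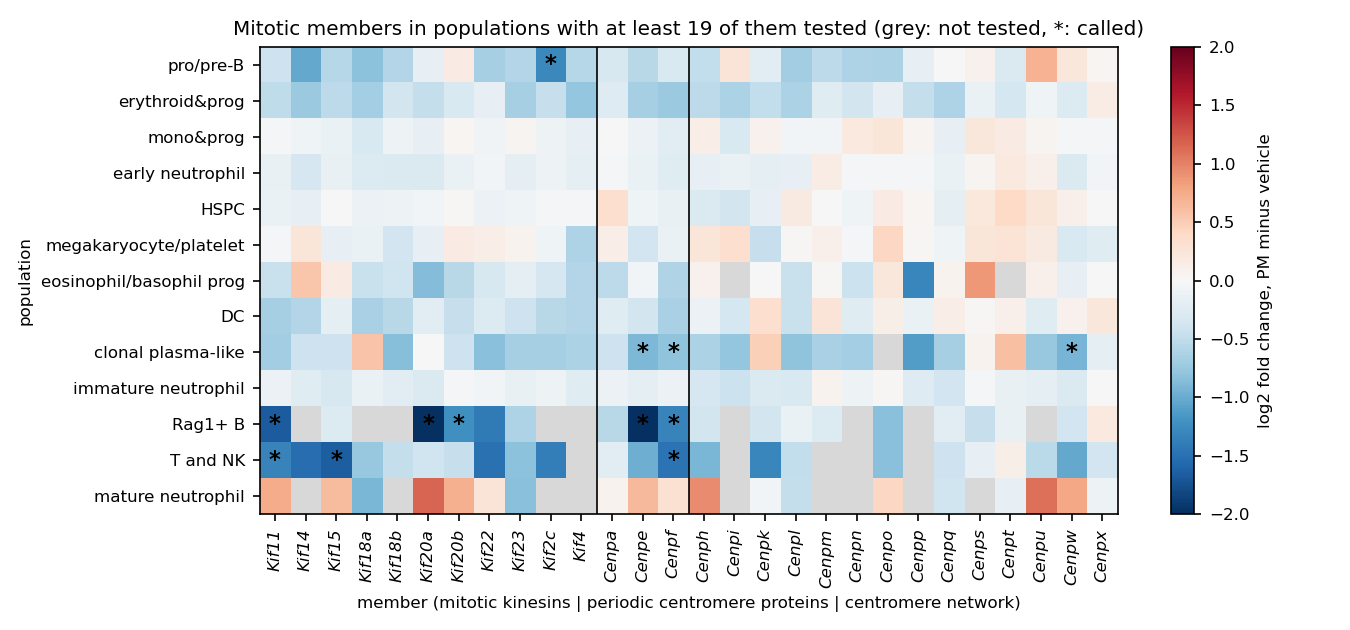
Log2 fold change (PM minus vehicle) of each mitotic member, in columns by class, for the 13 populations in which at least 19 of them were tested; blue is lower under PM, red higher, grey not tested, and an asterisk marks a call. Erythroid&prog, clonal plasma-like and T and NK cells are blue over most columns, HSPC and mono&prog are pale, and mature neutrophils, where the sum was 105 to 159 CPM, vary in both directions.

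HSPC, the stem and multipotent progenitors, differed little: their mitotic members summed to 1610 and 1621 CPM against 1590 and 1583 CPM. The mono&prog cells had 1661 and 2013 CPM against 1764 and 1770 CPM, with overlapping groups, and megakaryocyte/platelet cells had 1614 and 1608 CPM against 1478 and 1596 CPM. Eosinophil/basophil prog cells had 1571 and 1629 CPM against 1280 and 1285 CPM, and immature neutrophils 1349 and 1215 CPM against 1180 and 1104 CPM, in both cases lower without overlap and without a mitotic member called. Other plasma-like cells, which carry many light chains and are led by Igha and Ighg2c, were the population with higher values in both PM mice, at 117 and 76.4 CPM against 290 and 186 CPM. Without called doublets the values there were 124 and 62.5 plain CPM against 84.1 and 52.3, so their direction depended on the doublets.

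Across the 15 populations other than clonal plasma-like cells and early neutrophils, the estimates of the named members ranged widely. Kif4 and Kif2c had lower estimates in 8 of 8 and in 9 of 9 of the populations that tested them, with ranges of -0.78 to -0.02 and -1.39 to -0.04 on the log2 scale. Kif20a ranged from -2.35 to 1.16, Kif22 from -1.50 to 0.25, Kif11 from -1.66 to 2.34, Kif15 from -1.65 to 1.97, Kif23 from -1.53 to 1.85 and Kif20b from -1.23 to 1.61. Their highest values lay in other plasma-like cells or mature neutrophils, the 2 populations with the fewest mitotic CPM. Cenpe ranged from -2.18 to 0.65, Cenpf from -1.47 to 1.86 and Cenpa from -0.55 to 1.22. Among the named non-mitotic kinesins, Kif5b stayed between -0.20 and 0.06, Kif13b between -0.32 and 0.71 and Kif3a between -0.43 and 0.63. Kif21b lay between -0.38 and 0.85 and Kif1b between -0.66 and 1.37. Kif2a, used in and out of mitosis, ranged from -0.83 to 1.12. Kif1b had a higher estimate in 13 of 17 populations and Kif5b a lower one in 14 of 17.

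In immature neutrophils 1 of 44 members was called (2.27%), against a background of 5.55% of all genes, a share below the background. It was Kif3c, a kinesin-2 subunit best known from neurons. Kif3c had 3 and 1 UMIs under vehicle and 19 and 21 UMIs under PM (0.0981, 0.0474, 0.637 and 0.890 CPM). The gene passed the filter on low counts only through the PM mice, so its being tested depended on the group in which it was high. Its log2 fold change was 3.22 ± 0.64 (SE, adjusted p = 0.0167 by edgeR and 0.0497 by DESeq2); without the PM 2, vehicle 1 or vehicle 2 library the adjusted p was 0.0573, 0.0985 and 0.0988. Over whole libraries Kif3c had 0.793 and 1.24 plain CPM under vehicle and 1.96 and 2.23 under PM. The 14 non-mitotic kinesins with at least 1 and under 1000 UMIs, Kif3c among them, went in both directions. Both PM libraries were above both vehicle libraries for 7 and below them for 3, and 4 overlapped. The share of all rare genes that separated in this way was not determined, so these counts are no result about the kinesins. Some of the gaps were very small, as for Kif19a with 0.163 and 0.434 against 0.441 and 0.448. Among the 7, Kif5c had 0.233 and 0.304 against 0.588 and 0.692, Kif7 had 0.140 and 0.361 against 0.689 and 0.543, and Kif26b had 0.187 and 0.289 against 0.368 and 0.597. Among the 3, Kif9 had 0.828 and 0.954 against 0.827 and 0.502. These library values mix all cell types, whose shares differed between mice, and were not tested. Kif5a, a neuronal conventional kinesin, came closest to a call in mono&prog cells, with 0.593 and 1.46 CPM against 3.91 and 3.02 CPM (log2 fold change 1.84, adjusted p = 0.0797 by edgeR).

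Cells were also placed in a mitotic gate. Each cell was thinned to 1000 UMIs, and it was gated when at least 3 of them belonged to 50 companion genes of mitosis (Aurkb, Cdk1, Ccnb1, Top2a and others) that include no member. The companion genes do include the kinesins Kifc1 and Kifc5b and the centromere gene Cenpc1, whose symbols fall outside the member rule. Mature neutrophils, which no longer divide, had 0.643 to 1.33% of cells gated, at a median of 2695 to 3818 UMIs per cell. Called doublets were 4 of 22 and 1 of 17 of these gated cells under vehicle and 6 of 38 and 6 of 37 under PM. Whether the gated cells reflect free RNA was not tested. Clonal plasma-like cells had 57.1% and 40.7% gated under vehicle and 38.0% and 48.4% under PM, with overlapping groups, and the difference of the means, -5.70 points, turned to 2.50 points without the vehicle 1 library. Early neutrophils had 73.4% and 68.8% against 66.0% and 63.8%, and erythroid&prog cells 82.2% and 86.6% against 71.2% and 75.1%. Both were lower in both PM mice, as were immature neutrophils, eosinophil/basophil prog cells and Rag1+ B cells. Without called doublets this held in all of these but the eosinophil/basophil prog cells, where the groups overlapped. T and NK cells had 5.95% and 5.43% against 4.41% and 2.85%, also lower, but without called doublets they had 4.57% and 1.76% against 3.14% and 2.48%, which overlapped. Both PM mice were higher in mono&prog cells, with 34.0% and 36.3% against 40.6% and 40.6%, and in megakaryocyte/platelet cells, with 38.0% and 33.8% against 41.8% and 43.3%. The same held at a low level in mature B cells, with 2.63% and 0.743% against 3.09% and 2.96%, and in mature neutrophils, with 0.643% and 0.767% against 1.14% and 1.33%. Without thinning, 96.8 to 100% of clonal plasma-like cells and 14.4 to 18.3% of mature neutrophils would have passed, and 3 UMIs lay near the limit for many cells: 41 of 171 thinned clonal plasma-like cells had 2 or 3.

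**Figure D5:**
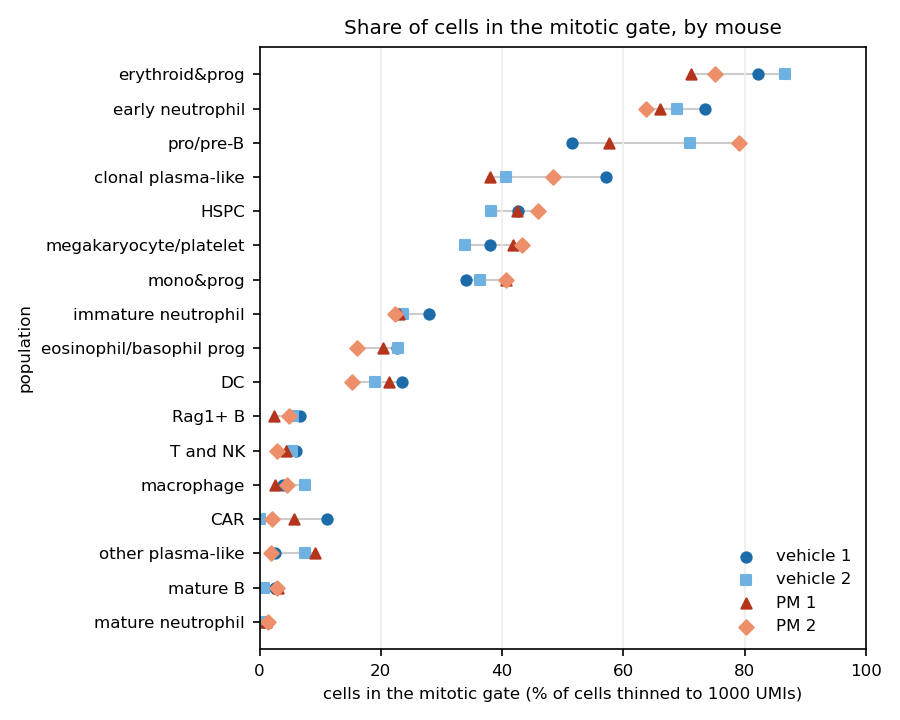
Share of cells in the mitotic gate (% of cells thinned to 1000 UMIs) for each population and mouse, with a grey line over the 4 mice. Called doublets are kept. Erythroid&prog cells and early neutrophils are among those lower in both PM mice. The mono&prog and megakaryocyte/platelet cells are among those higher in both, and clonal plasma-like cells overlap between 38.0% and 57.1%.

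Within gated clonal plasma-like cells (12, 11, 35 and 15 cells) the mitotic members summed to 2217 and 2532 CPM in the vehicle mice and to 2007 and 1397 CPM in the PM mice. Of 27 tested 23 had a lower estimate, at a median log2 fold change of -0.48, and none was called, where 0.0432% of all genes were called. The gate itself rests on companion genes, of which 45 of 49 had lower estimates in all clonal plasma-like cells, gated or not. It therefore does not separate the number of dividing cells from their RNA content. Over the 12 gated populations 1 of 415 member tests was called by edgeR and none by DESeq2: Kif2c in gated pro/pre-B cells, at 169 and 125 CPM against 49.5 and 56.5 CPM, fell by 1.37 on the log2 scale (SE 0.29, adjusted p = 0.00936, with 2.34% of all genes called there). It rested on 22, 110, 35 and 39 UMIs, beside 22, 111, 37 and 39 in all pro/pre-B cells, so it is not a separate result. Called doublets were 8 of 16 and 13 of 93 of these gated cells under vehicle and 11 of 64 and 4 of 53 under PM.

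The PM effect in clonal plasma-like cells was compared with that in 4 other dividing populations within the same mice. No member differed against early neutrophils or erythroid&prog cells, where 0.535% and 0.0648% of all genes did. Against HSPC 1 of 44 members was called (2.27%), with 0.655% of all genes called, and it was Cenpw: its PM effect was lower by a log2 difference of -1.02 ± 0.22 (SE, adjusted p = 0.0104), and its HSPC levels were 67.5 and 92.5 CPM against 76.3 and 94.9 CPM. Against pro/pre-B cells 2 of 43 members were called (4.65%), near the 3.72% of all genes called. Cenpw differed by -1.16 ± 0.29 (SE, adjusted p = 0.0122), and Kif18a, which damps chromosome movements at metaphase, differed by 1.48 ± 0.41 (SE, adjusted p = 0.0274). Kif18a had 21.8 and 23.7 CPM against 29.4 and 40.7 CPM in clonal plasma-like cells and 62.5 and 101 CPM against 32.0 and 73.5 CPM in pro/pre-B cells. All comparisons share the clonal plasma-like libraries.

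The companion genes of mitosis, which hold no member, and genes of S phase were counted in the same fits. In clonal plasma-like cells 45 of 49 companion genes tested had a lower estimate (median log2 fold change -0.57, 2 called lower). Of 25 S phase genes 10 had a lower estimate there (median 0.08, none called). This split was not particular to them. Lower estimates were held by 47 of 50 companion and 10 of 25 S phase genes in dendritic cells and by 47 of 50 and 11 of 25 in pro/pre-B cells. In eosinophil/basophil prog cells they were held by 39 of 48 and 1 of 23. In erythroid&prog cells all 50 companion genes and all 25 S phase genes had lower estimates (medians -0.47 and -0.41, none called), and in T and NK cells 46 of 47 and 23 of 24 did (medians -0.92 and -0.47, 5 and 1 called lower). In HSPC 23 of 50 companion genes and 17 of 28 mitotic members had lower estimates, and in mature B cells 5 of 13 and 5 of 7 did. Transport cofactors of kinesins, such as light chains and adaptors, had medians of 0.03 in clonal plasma-like cells, -0.05 in erythroid&prog cells and 0.01 in T and NK cells. The medians over all genes tested lay between -0.02 and 0.01 in the 17 populations.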

How the data were processed

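Bone marrow cells of 4 mice, 2 per group, were profiled with 1 10x Genomics 3′ library each. The authors aligned the reads and made the deposited UMI counts per gene and cell with Cell Ranger 6.0.1, per the labels. The study's methods name GRCm38 and the labels name GRCm39, so coordinates here come only from the RefSeq promoter table of GRCm38.p6.

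Cells under 300 genes or over 20% mitochondrial counts were removed, and 2500 variable genes, 30 principal components, 15 neighbors and a Leiden resolution of 1 gave the clusters (scanpy 1.11.5, leidenalg 0.10.2, Python 3.11.15), which were named from marker lists. Scrublet scores were cut at an expected rate of 0.8% doublets per 1000 cells, because the automatic threshold did not separate doublets. Called doublets were kept and left out as an alternative. Raw counts were summed per mouse and population, filtered (filterByExpr), scaled (TMM) and tested with edgeR 4.0.16 (quasi-likelihood test, condition only, Benjamini-Hochberg adjustment over all genes, R 4.3.3). The SE printed with a log2 fold change of PM against vehicle was derived from this test and not estimated separately. It is the absolute log2 fold change divided by the square root of the F statistic. CPM used the TMM library sizes, while plain CPM and values over whole libraries used plain totals. Replicate numbers were not used to pair mice in these tests. DESeq2 1.42.0 was an alternative, with other scaling, filters, gates, clusterings and left-out libraries. The difference of PM effects was the interaction of population and condition with the mouse as a block. The fits were tested on simulated data. Named with values were members called in any population or gated population, a list of 11 mitotic members and 6 other kinesins (in full for clonal plasma-like cells and early neutrophils, by range elsewhere), and members with no UMI. Further members and values named beside them (Cenpt, Cenpk, Cenps, Kif18a, Kif7, Kif3c, Kif3b, Kif1c, Kif14, Kif9, Kif5a, Kif5c and Kif26b levels) were chosen after their values were seen. The members, classes and lists were chosen with earlier results of these data known. Levels were not ranked between genes, since 3′ UMI levels differ in capture between genes.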

Additional observations from a re-analysis of the deposited data

Results flagged for a closer look

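The PM effect on 2 members differed between clonal plasma-like cells and another dividing population by the interaction test of edgeR. For Cenpw the effect in clonal plasma-like cells was lower by a log2 difference of -1.02 than in HSPC and of -1.16 than in pro/pre-B cells. For Kif18a it was higher by 1.48 than in pro/pre-B cells. Called against HSPC were 1 of 44 members (2.27%) and 0.655% of all genes, and against pro/pre-B cells 2 of 43 members (4.65%), near the 3.72% of all genes. Against early neutrophils and erythroid&prog cells Cenpw gave -0.58 and -0.69 and Kif18a 0.92 and 1.26, with adjusted p between 0.152 and 0.292, so neither was called there. The comparisons share the clonal plasma-like libraries and are not independent.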

How the results depend on the processing

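Of the 12 lower and 2 higher member calls over the populations, DESeq2 made 2 and 1, leaving out called doublets left 5 and 1, and the stricter cell filter left 1 higher. Clustering without cell cycle genes gave 6 lower, and no filter on low counts gave 5 higher. Leaving out 1 library gave 8 to 13 lower and 0 to 3 higher. With a replicate block 8 were lower and 1 higher. Deviations of same-numbered mice correlated from -0.16 to 0.24. With 2 mice per group this cannot settle whether the numbers pair the mice. A figure legend of the paper refers to 2 independent experiments for the vehicle and PM samples, without saying which mouse belongs to which. A crossed replicate block, chosen after seeing the data, gave 8 lower and 3 higher in the populations with a correlation under -0.1. In gated cells, with 1 lower and 0 higher, DESeq2 gave 0 lower, a gate of 2 UMIs 3 lower, a gate of 5 UMIs 1 higher and no filter 1 higher; leaving out 1 library gave 0 to 6 lower and 0 to 1 higher. The log2 ratio of the summed mitotic members in clonal plasma-like cells was -0.35 without called doublets and -0.71 to -0.52 without 1 library. The cause of these shifts was not tested. Of 157 values of single called members under alternatives, 103 stayed called and 54 did not, and none changed direction. The clonal plasma-like cells number 21 to 92 per mouse, which limits every statement on them.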
